A study of Mus musculus with 6 samples.

Results

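Platelet-derived growth factors (PDGF) and their receptors were followed in endothelial cells (EC) sorted from mouse lung, across the passage from infancy to adulthood. The family comprises the ligand genes Pdgfa, Pdgfb, Pdgfc and Pdgfd and the receptor genes Pdgfra and Pdgfrb, 6 genes in all, and members were the rows of the expression table that carry these symbols. Of the 6 genes, 5 had a row among the 12623 genes of the table, and Pdgfc was not analysed here. All 5 reached 1 RPKM (reads per kilobase of transcript, scaled to library size) in at least 1 library, as did 12458 genes in all. Pdgfra met this minimum only through the infant libraries, in which it was high. The remaining 4 reached it in libraries of both ages.

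The EC came from wild-type C57BL/6N mice, with 3 infant and 3 young adult libraries and neither genetic change nor treatment in either group. Per the study's methods, infant mice were in the second week after birth and young adults around the third month of life, and the sort kept living CD31+CD34+ cells lacking PTPRC, LYVE1, LY76 and PDPN. The sources used here do not say whether a library held 1 mouse or a pool, so p-values measure the spread between these libraries, which may be technical. The comparison asks which genes of the family differ between growing and resting lung EC.

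PDGFs are secreted dimers that activate receptor tyrosine kinases on neighbouring cells. In growing vessels EC release PDGF-B, which is held near the endothelium by matrix and draws in pericytes and smooth muscle cells through PDGFRβ. PDGF-A acts through PDGFRα, and in the developing lung this pair is known for the myofibroblasts that form alveolar septa, so that the receptors are regarded as markers of mesenchymal cells and not of endothelium. PDGF-C and PDGF-D are made as latent forms and need a protease for activation.

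The libraries of one age were not alike in every respect. Log2 values of infant 2 correlated with those of infant 1 and infant 3 at Pearson r = 0.964 for each, and infant 1 with infant 3 at 0.987. With the young adult libraries infant 2 correlated at 0.950 to 0.963, about as closely as with the other infants, whereas infant 1 and infant 3 did so at 0.899 to 0.913. Globin genes held 3.41% to 23.5% of the summed RPKM in infant libraries and at most 0.487% in young adult libraries. The methods describe female mice, but the Y-linked genes Ddx3y, at 16.5 to 21.9 RPKM, and Eif2s3y, at 15.1 to 19.3 RPKM, were present in every infant library and listed at 0 in every young adult library. Age and sex therefore cannot be told apart in any comparison given here. Xist, the RNA of the inactive X chromosome, was at 7.6 to 8.7 RPKM in infant EC and 12.5 to 15.6 RPKM in young adult libraries. Every infant library thus held both Y-linked RNA and Xist. Whether an infant library mixed cells of both sexes was not tested. No batch is given in the labels. Read totals are not given, so the depth behind each RPKM is unknown.

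In young adult EC both receptors were lower, and the ligands did not pass the test. Pdgfra and Pdgfrb were both called lower in young adult EC, and 0 of the 3 measured ligands were called in either direction, with 1, Pdgfa, at an unadjusted p under 0.05. A call required an adjusted p under 0.05 in limma and a log2 change of more than 0.81 in either direction, both on log2(RPKM + 1). Of all 12458 genes tested, 11.4% were called, 8.1% lower and 3.33% higher in young adult EC. The share of all genes at an unadjusted p under 0.05 was not computed. Counts at that level, here and below, therefore have no background to be set against. Over all genes, the median log2 change was -0.07.

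**Figure D1:**
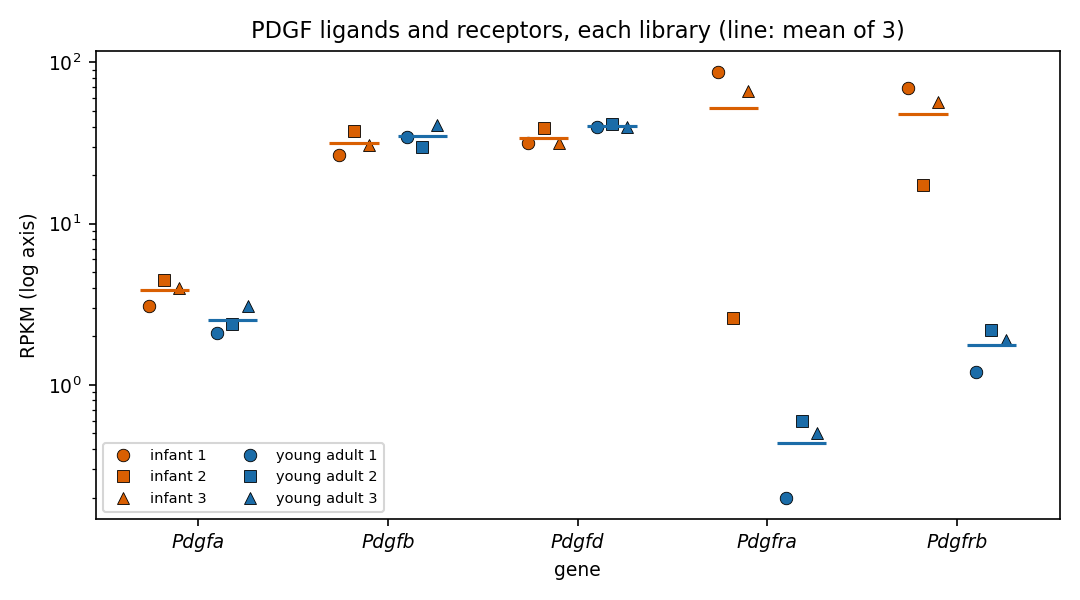
RPKM (log axis) of the 5 measured PDGF genes in each library, with orange symbols for infant and blue for young adult EC, 1 symbol shape per replicate number and a line at the mean of 3. Ligand values of the ages lie close together, whereas both receptors lie lower in every young adult library, and infant 2 (square) is the lowest infant library for both, at 2.6 RPKM for Pdgfra and 17.4 RPKM for Pdgfrb.

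The ligand best known from endothelium, Pdgfb, was at 26.5, 37.6 and 30.8 RPKM in infant 1, 2 and 3, and at 34.4, 29.9 and 41.2 RPKM in young adult 1, 2 and 3. The age groups overlapped, with infant 2 above 2 of the 3 young adult libraries. The mean was 31.6 ± 5.60 RPKM (SD, n = 3) in infant and 35.2 ± 5.69 RPKM (SD, n = 3) in young adult EC. The log2 fold change was 0.15 ± 0.16 (SE; adjusted p = 0.52, limma), with a 95% confidence interval of -0.22 to 0.52. Expressed as a fold on the RPKM + 1 scale, the interval runs from 0.857 to 1.44, and so does not reach the size required for a call on either side. Pdgfb (RefSeq NM_011057, mm10 chromosome 15, 79995865 to 80024614) was higher than 86.8% of the 12623 genes in infant and 87.7% in young adult EC.

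Pdgfd (NM_027924, chromosome 9, 6168363 to 6534284), whose product is activated by proteases such as urokinase and binds PDGFRβ, reached levels like those of Pdgfb. It was at 31.5, 39.0 and 31.7 RPKM in infant 1, 2 and 3, and at 39.5, 41.4 and 39.7 RPKM in young adult 1, 2 and 3. Every young adult library was above every infant library, by as little as 0.5 RPKM between infant 2 and young adult 1. Groups that do not overlap were found for 43.4% of all genes tested. The mean was 34.1 ± 4.27 RPKM (SD, n = 3) in infant and 40.2 ± 1.04 RPKM (SD, n = 3) in young adult EC. The log2 fold change was 0.24 ± 0.11 (SE; adjusted p = 0.145, limma; 95% confidence interval -0.02 to 0.49). Without infant 2 it was 0.34 with an adjusted p of 0.0247 in limma, still under the log2 limit of 0.81.

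Pdgfa (NM_008808, chromosome 5, 138976014 to 139000792), a ligand of PDGFRα, was the weakest of the 3 ligands. It was at 3.1, 4.5 and 4.0 RPKM in infant 1, 2 and 3, and at 2.1, 2.4 and 3.1 RPKM in young adult 1, 2 and 3. The groups met at 3.1 RPKM, the lowest infant and the highest young adult value. The mean was 3.87 ± 0.709 RPKM (SD, n = 3) in infant and 2.53 ± 0.513 RPKM (SD, n = 3) in young adult EC. The log2 fold change was -0.46 ± 0.16 (SE; adjusted p = 0.0642, limma; 95% confidence interval -0.82 to -0.10), which did not pass.

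Within each library Pdgfb exceeded Pdgfa. The log2 ratio of Pdgfb to Pdgfa, taken on RPKM + 1, was 2.75, 2.81 and 2.67 in infant 1, 2 and 3, and 3.51, 3.18 and 3.36 in young adult 1, 2 and 3. This ratio does not depend on the scaling of RPKM values between libraries beyond the added 1. All young adult ratios were above all infant ratios, with a mean of 3.35 ± 0.165 (SD, n = 3) against 2.74 ± 0.0711 (SD, n = 3). How many pairs of genes have ratios that separate the ages in this way was not computed. The difference of 0.61 had p = 0.1 in an exact two-sided permutation test, the smallest p that 3 against 3 libraries allow. Its size depended on the added value, at 0.75 with 0.1 added and 0.37 with 5 added in place of 1.

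Pdgfra, the receptor for PDGF-A, showed the widest range of the family. It was at 87.2, 2.6 and 66.8 RPKM in infant 1, 2 and 3, and at 0.2, 0.6 and 0.5 RPKM in young adult 1, 2 and 3. All young adult values lay below all infant values, but infant 2 was 29.6 times lower than the mean of infant 1 and infant 3 and only 4.33 times above the highest young adult library. The mean was 52.2 ± 44.1 RPKM (SD, n = 3) in infant and 0.433 ± 0.208 RPKM (SD, n = 3) in young adult EC. The log2 fold change was -4.29 ± 1.07 (SE; adjusted p = 0.0256, limma; 95% confidence interval -6.78 to -1.80). The call rested on the set of libraries used. Without infant 2 the log2 fold change was -5.76 (adjusted p = 1.41e-06), and leaving out infant 1, infant 3, young adult 1, young adult 2 or young adult 3 gave -3.46, -3.65, -4.17, -4.37 and -4.33, with adjusted p between 0.0688 and 0.0881 in limma, so that none of these 5 fits called the gene. Its 2 transcript rows, NM_011058 and NM_001083316, held nearly the same values, with 87.2 and 86.2 RPKM in infant 1.

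Pdgfrb (NM_001146268, chromosome 18, 61045127 to 61085067), the receptor through which PDGF-B acts on mural cells, fell more evenly. It was at 69.4, 17.4 and 57.1 RPKM in infant 1, 2 and 3, and at 1.2, 2.2 and 1.9 RPKM in young adult 1, 2 and 3. The groups were well apart, with infant 2 again the lowest infant library, 3.64 times below the mean of the other two and 7.91 times above the highest young adult library. The mean was 48.0 ± 27.2 RPKM (SD, n = 3) in infant and 1.77 ± 0.513 RPKM (SD, n = 3) in young adult EC. The log2 fold change was -3.95 ± 0.46 (SE; adjusted p = 0.00207, limma; 95% confidence interval -5.01 to -2.89). Pdgfrb was called in each of the 6 fits that left out 1 library.

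**Figure D2:**
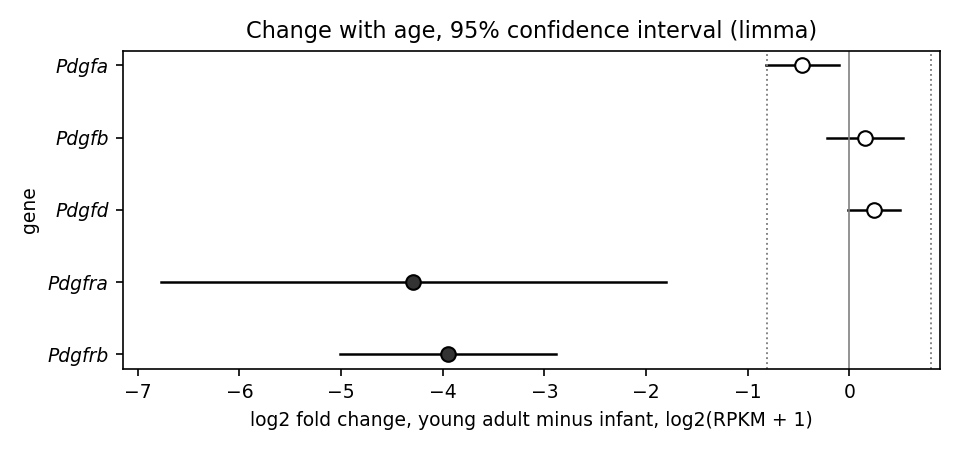
Log2 fold change, young adult minus infant, of the 5 measured PDGF genes on the log2(RPKM + 1) scale, with bars for the 95% confidence interval from limma, filled points for called genes and dotted lines at a log2 change of 0.81 in either direction. Pdgfra (-4.29) and Pdgfrb (-3.95) lie far to the left, and the intervals of Pdgfb and Pdgfd include 0.

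The order of levels changed accordingly. RPKM is a value per transcript length, so levels of different genes can be set side by side. By mean RPKM the order was Pdgfra, Pdgfrb, Pdgfd, Pdgfb and Pdgfa in infant EC. The ranges of neighbours in this order overlapped, except that Pdgfa lay below Pdgfb. The order rested on infant 1 and infant 3. In infant 2 it was Pdgfd (39.0 RPKM), Pdgfb (37.6), Pdgfrb (17.4), Pdgfa (4.5) and Pdgfra (2.6), with the receptor for PDGF-A last as in young adult EC. In young adult EC the order was Pdgfd, Pdgfb, Pdgfa, Pdgfrb and Pdgfra. Here Pdgfd and Pdgfb overlapped, as did Pdgfa and Pdgfrb, while Pdgfa lay apart from Pdgfb and Pdgfra apart from Pdgfrb. The log2 ratio of Pdgfb to Pdgfrb on RPKM + 1 was -1.36, 1.07 and -0.87 in infant 1, 2 and 3, and 4.01, 3.27 and 3.86 in young adult 1, 2 and 3. The ligand exceeded its receptor in all young adult libraries and, among infants, in infant 2. The difference between ages was 4.10, with p = 0.1 in an exact two-sided permutation test, again the smallest possible.

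Pdgfra is shown with the bases before its RefSeq start because it had the widest range, and Pdgfd because it was the most abundant member in young adult EC. Both come from RefSeq, build GRCm38.p6, plus strand. The first spans chr5:75152001-75152250, the 250 bases before the start, and the second spans chr9:6168236-6168362, 127 bases that end before the first annotated start of the gene. Neither overlaps an exon of GENCODE M21. The Pdgfra window lies within the span that RefSeq gives the gene, whose first start is at 75151322. Capitals mark matches to 4 motifs searched on both strands, namely the GC box (GGGCGG), the TATA box (TATAAA), the CCAAT box (CCAAT) and the E-box (CANNTG).
Pdgfra: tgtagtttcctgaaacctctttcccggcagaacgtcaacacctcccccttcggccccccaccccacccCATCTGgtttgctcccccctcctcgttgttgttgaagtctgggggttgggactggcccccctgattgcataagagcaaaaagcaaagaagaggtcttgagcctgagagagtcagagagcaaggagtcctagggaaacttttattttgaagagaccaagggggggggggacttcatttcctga
Pdgfd: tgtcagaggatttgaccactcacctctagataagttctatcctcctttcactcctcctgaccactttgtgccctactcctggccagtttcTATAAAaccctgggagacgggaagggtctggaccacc
The Pdgfra window held 1 E-box, a motif found in 66.2% of the 32851 RefSeq windows of this length, and no match to the other motifs. The Pdgfd window held 1 TATA box, found in 6.32% of windows of its length, and no other match. The windows compared were the first 127 of the 250 bases before each RefSeq start. The Pdgfd window has this place before 1 RefSeq start (6168486) but also ends directly before the gene's first start (6168363). The 6.32% is therefore not a share of windows that end at a start. The content of G and C was 54.4% for Pdgfra and 51.2% for Pdgfd, near the medians of 52.4% and 50.4% over all windows of the same lengths. The matches describe letters only, and binding was not measured.

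Pdgfra lies on chromosome 5 (75151322 to 75198206) beside Kit and Kdr, related receptor tyrosine kinase genes, with gaps of 377 and 276 kb and no other protein-coding gene of the RefSeq table between them. The 3 neighbours did not change alike. Kit, the receptor for stem cell factor, was at 107.7, 95.7 and 79.3 RPKM in infant EC and 223.9, 243.1 and 154.9 RPKM in young adult EC, and rose by 1.11 ± 0.20 on the log2 scale (SE; adjusted p = 0.00864, limma). Kdr, the main receptor for VEGF-A on endothelium, was at 208.8 to 280.2 RPKM in infant EC and 202.6 to 309.4 RPKM in young adult EC, with a log2 fold change of -0.01 (adjusted p = 0.98, limma). Differences between these changes were not tested.

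Among proteins that process PDGF, bind it or bind its receptors, 12 of 13 listed genes were tested, of which 1 rose, 5 fell and 6 did not pass. Their median log2 change was -0.52 against -0.07 for all genes. Pdgfrl, a gene that resembles the outer part of the receptors, was at 23.4, 3.6 and 24.3 RPKM in infant EC and 0.2, 0.8 and 0.2 RPKM in young adult EC, a log2 fold change of -3.37 ± 0.61 (SE; adjusted p = 0.00931, limma). Lrp1, an endocytic receptor that associates with PDGFRβ, fell from 12.0, 2.6 and 10.2 RPKM to 0.3, 0.7 and 0.7 RPKM, a log2 fold change of -2.37 ± 0.44 (SE; adjusted p = 0.0102, limma). Infant 2 was the lowest infant library for both, as for the receptors.

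Sparc, a matrix protein that binds PDGF-B, fell from 968.3, 618.4 and 1109.5 RPKM to 282.0, 312.8 and 250.2 RPKM, a log2 fold change of -1.63 ± 0.24 (SE; adjusted p = 0.00434, limma). Of the plasminogen activators, Plau, whose product can activate PDGF-D, was at 1.2, 1.4 and 0.5 RPKM in infant EC and 4.3, 4.3 and 7.5 RPKM in young adult EC and rose by 1.64 ± 0.24 (log2, SE; adjusted p = 0.00458, limma). Plat, which can activate PDGF-C, was at 43.6 to 88.0 RPKM in infant EC and 34.4 to 41.3 RPKM in young adult EC, with a log2 fold change of -0.82 (adjusted p = 0.0506, limma) and, without infant 2, of -1.15 (adjusted p = 0.00022, called). Nrp1, a co-receptor, was at 312.7 to 462.6 RPKM in infant EC and 322.3 to 407.0 RPKM in young adult EC, with a log2 fold change of -0.04 (adjusted p = 0.896, limma). The remaining genes called lower, named after their values were seen, were the proprotein convertases Pcsk5 (log2 fold change -1.08) and Pcsk6 (-0.85). Pcsk6 was at 0.8, 0.4 and 1.3 RPKM in infant EC and listed at 0 in every young adult library, so like Pdgfra, Pdgfrl and Lrp1 it entered the test only through infant libraries.

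Genes that carry the signal inside the cell came next. Of 29 listed adaptors, kinases and other effectors of receptor signalling 27 were tested, 0 were called higher and 1 lower by limma, against 3 and 7 at an unadjusted p under 0.05. How many of all genes reach an unadjusted p under 0.05 was not computed, so these counts are not a result about the list. Their median log2 change was -0.11. The called gene was Pik3r2, a regulatory subunit of phosphoinositide 3-kinase, at 4.5, 2.4 and 2.2 RPKM in infant EC and 0.8, 1.0 and 1.3 RPKM in young adult EC (log2 change -0.95, adjusted p = 0.0198, limma). It was not called without infant 1 (-0.71), young adult 1 (-0.87) or young adult 2 (-0.94). At the other end of abundance Mapk3, a kinase of the ERK cascade, was at 93.3 to 111.7 RPKM in infant EC and 118.2 to 142.3 RPKM in young adult EC (log2 change 0.36, adjusted p = 0.0669, limma). Nras, a RAS GTPase, was at 53.4 to 62.7 and 38.2 to 43.8 RPKM (log2 fold change -0.51, adjusted p = 0.0148, limma), under the limit of 0.81.

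Of 13 genes that dampen receptor signalling, 12 were tested and 0 were called higher by limma, against 2 at an unadjusted p under 0.05. Their median log2 change was -0.15. Dusp6, a phosphatase of ERK, was at 83.3 to 114.8 and 65.9 to 101.2 RPKM (log2 fold change -0.12, adjusted p = 0.68, limma), so the ages overlapped.

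Relatives of the PDGF receptors in the same receptor class, with their ligands, went in both directions. Of 7 listed genes 6 were tested, 2 rose, 1 fell and 3 did not pass. Besides Kit, Csf1, the ligand of the macrophage receptor, rose from 5.6, 9.1 and 5.4 RPKM to 15.7, 14.7 and 15.1 RPKM, by 1.10 ± 0.17 (log2, SE; adjusted p = 0.00572, limma). Kitl, the ligand of Kit, fell from 255.7, 339.1 and 259.8 RPKM to 147.7, 141.8 and 171.8 RPKM, a log2 fold change of -0.88 ± 0.16 (SE; adjusted p = 0.00874, limma). Kitl was no longer called without infant 2 (log2 change -0.75) or without young adult 2 (-0.82, adjusted p = 0.0501, limma).

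Other signals between EC and mural cells were set beside Pdgfb. Of 9 listed genes 8 were tested, 2 rose and 2 fell. The median log2 change of the list was 0.38. Edn1, endothelin-1, rose from 14.3, 18.6 and 13.3 RPKM to 41.2, 55.1 and 42.2 RPKM, by 1.53 ± 0.16 (log2, SE; adjusted p = 0.00148, limma). S1pr1, a sphingosine-1-phosphate receptor of EC, was at 192.9, 399.0 and 198.4 RPKM in infant EC and 461.0 to 507.6 RPKM in young adult EC (log2 change 0.97, adjusted p = 0.0385, limma). Of the 6 fits that left out 1 library, only the one without infant 2 called S1pr1 (log2 change 1.31), and in the other 5 its log2 change was 0.79 to 1.01. Angpt1, made mainly by mural cells, fell by 1.70 on the log2 scale (adjusted p = 0.00456, limma), and Cdh2, N-cadherin, fell by 1.44 (adjusted p = 0.00165, limma).

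**Figure D3:**
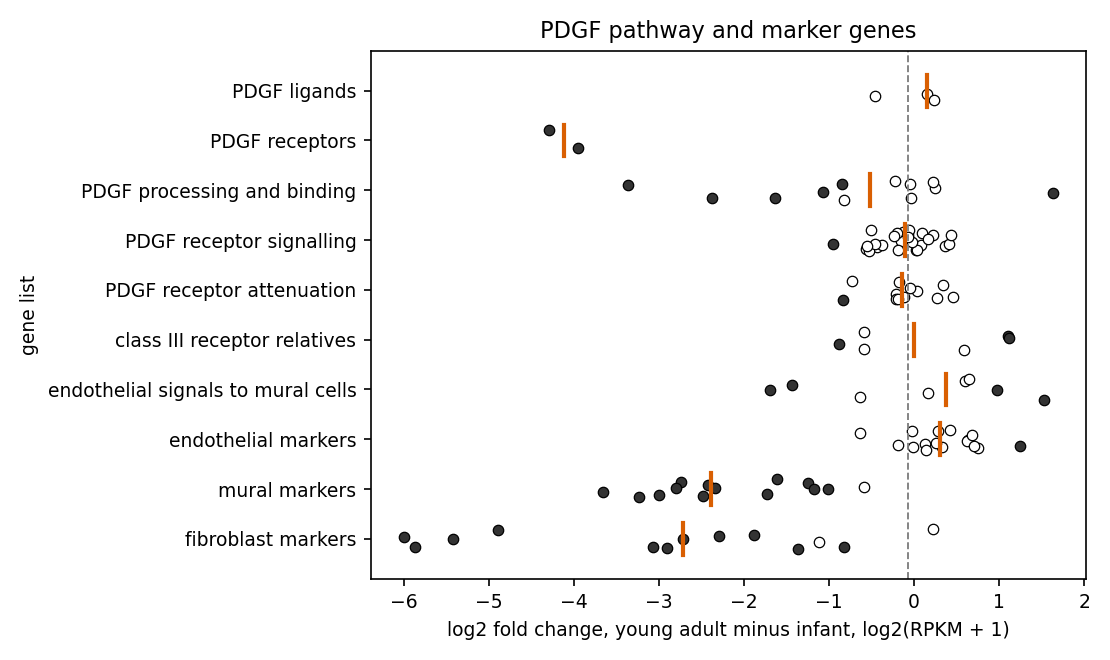
Log2 fold change, young adult minus infant, of each tested gene in 10 lists on the log2(RPKM + 1) scale, with filled points for called genes, an orange bar at each list's median and a dashed line at the median of all genes (-0.07); vertical scatter within a list carries no value. Signalling and attenuation genes cluster near the dashed line, and the receptors lie to its left, below every mural marker (median -2.39) and within the range of the fibroblast markers (median -2.72).

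Markers of mesenchymal cells moved with the receptors. Of the 14 mural markers tested, 13 fell, 0 rose (0 also at an unadjusted p under 0.05, limma) and 1 did not pass, and their summed level was 161.8 to 351.0 RPKM in infant EC and 21.0 to 30.4 RPKM in young adult EC. Acta2, smooth muscle actin, was at 60.8, 17.8 and 74.4 RPKM in infant EC and 3.2, 3.7 and 4.3 RPKM in young adult EC (log2 change -3.24, adjusted p = 0.00425, limma). The marker that did not pass was Rgs5, named after its values were seen, at 2.2 to 4.4 and 1.5 to 2.1 RPKM. No mural marker was at 0 in every young adult library. The pericyte proteoglycan gene Cspg4, named after its values were seen, was at 1.0 to 1.7 RPKM in infant EC and 0 to 0.1 RPKM in young adult EC.

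Of 15 fibroblast markers 13 were tested, 11 fell, 0 rose (0 also at an unadjusted p under 0.05, limma) and 2 did not pass, and their summed level was 325.2 to 1722.3 RPKM in infant EC and 21.5 to 41.8 RPKM in young adult EC. Col1a1, a chain of type I collagen, was at 305.6, 59.2 and 128.5 RPKM in infant EC and 0.6, 2.0 and 1.5 RPKM in young adult EC (log2 change -5.87, adjusted p = 0.000998, limma). Eln, the elastin gene of septal myofibroblasts and vessel walls, was at 641.1, 48.1 and 414.5 RPKM in infant EC and 6.1, 8.7 and 6.3 RPKM in young adult EC (log2 change -4.89, adjusted p = 0.00771, limma). The markers that did not pass, named after their values were seen, were Lum (log2 fold change -1.12) and Inmt (0.22). Fewer cells of a type and less RNA per cell cannot be told apart in these bulk libraries, and the part of such cells in the fall of the receptors was not tested.

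In infant 2 the fibroblast sum was 4.36 times and the mural sum 1.93 times below the mean of infant 1 and infant 3, in the same library in which both receptors were lowest. The fibroblast sum is carried by Eln and the collagens, and not every marker was low there. Chosen after their values were seen, Dcn was at 7.6, 19.9 and 8.0 RPKM in infant 1, 2 and 3, Lum at 4.1, 14.4 and 4.7 RPKM, and Inmt at 4.1, 11.7 and 7.1 RPKM, each highest in infant 2. The median level of the fibroblast markers was 19.1, 14.4 and 13.4 RPKM in infant 1, 2 and 3, so by this measure infant 2 was not the lowest. The median of the mural markers was 12.7, 5.85 and 13.4 RPKM, lowest in infant 2. Some mural markers, chosen after their values were seen, were lowest in infant 1. Cox4i2 was at 25.1, 38.4 and 55.9 RPKM in infant 1, 2 and 3, and Higd1b at 9.7, 11.4 and 15.8 RPKM. Ndufa4l2 was at 16.9, 17.5 and 24.1 RPKM, and Notch3 at 1.1, 1.2 and 1.6 RPKM. Without infant 2, 13 mural and 11 fibroblast markers were still called lower. As a share of the mural sum, Pdgfrb was 25.3%, 10.8% and 16.3% in infant 1, 2 and 3 and 5.71%, 7.24% and 6.86% in young adult 1, 2 and 3, so that every infant share was above every young adult share. As a share of the fibroblast sum, Pdgfra was 5.06%, 0.80% and 6.00% in infant and 0.930%, 1.44% and 1.36% in young adult EC, where infant 2 lay below all young adult libraries. These shares were not tested, and how many of all genes overlap between ages on such measures was not computed.

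**Figure D4:**
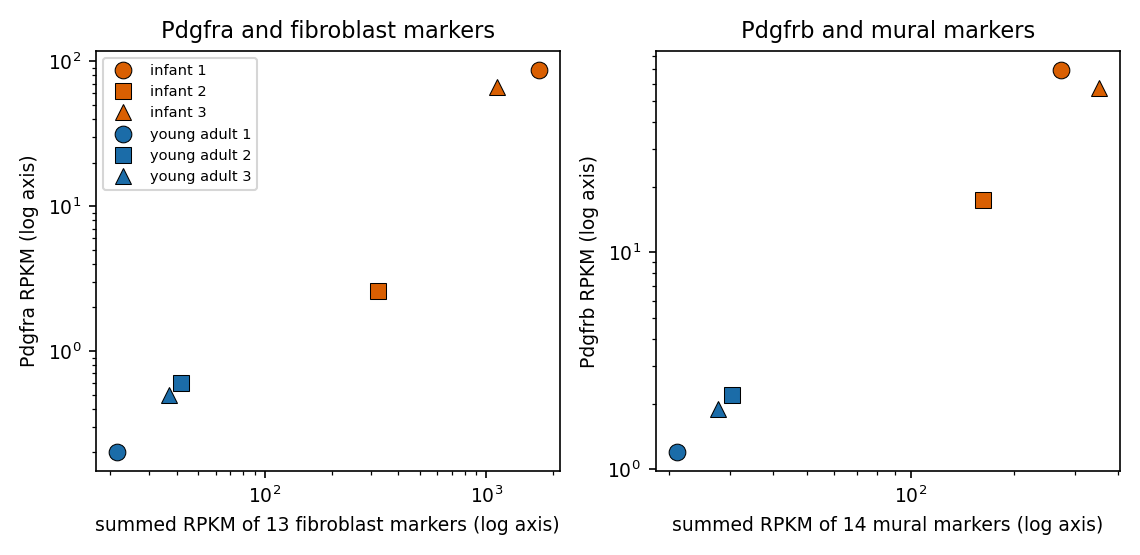
Left, Pdgfra RPKM against the summed RPKM of 13 fibroblast markers; right, Pdgfrb RPKM against the summed RPKM of 14 mural markers, with 1 point per library and log axes throughout. The 3 young adult libraries (blue) lie at the lower left with at most 0.6 RPKM of Pdgfra and 2.2 RPKM of Pdgfrb, and infant 2 (orange square) lies between them and the other infant libraries.

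Endothelial markers were present at high levels in all libraries, beside markers of other cells. The 16 endothelial markers summed to 3787.7 to 5538.3 RPKM in infant EC and 5740.3 to 6360.2 RPKM in young adult EC, 1 rose, 0 fell and 15 did not pass in limma, against 7 higher and 1 lower at an unadjusted p under 0.05. Their median log2 change was 0.30. The marker that rose was Tek, the angiopoietin receptor (log2 fold change 1.25, adjusted p = 0.00712, limma). Without infant 2, 6 were called higher. Relative to this sum, Pdgfb was 0.640%, 0.679% and 0.813% in infant and 0.599%, 0.492% and 0.648% in young adult EC, so the ages overlapped. Pdgfd was 0.704% to 0.837% and 0.624% to 0.688%, and Pdgfa 0.0749% to 0.106% and 0.0366% to 0.0487%. The endothelial sum was itself higher in every young adult library than in every infant library. Its largest part was Egfl7, at 1004.8 to 1550.5 RPKM in infant and 1846.0 to 1978.2 RPKM in young adult EC. How many of all genes overlap between ages as such shares was not computed. All 3 ligands thus had lower mean shares of the endothelial sum in young adult EC, although Pdgfb and Pdgfd had higher mean RPKM there. The shares were not tested.

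Pdgfb is a known gene of arterial EC and of sprouting tip cells, and platelets carry PDGF. Of 10 arterial markers 9 were tested, 0 rose (0 also at an unadjusted p under 0.05, limma) and 1 fell, namely Gja5, a connexin (log2 fold change -1.08, adjusted p = 0.0112, limma), with a median of -0.19. Gja5 was not called without young adult 1 (-1.03, adjusted p = 0.0513, limma). Of 9 tip cell markers 0 rose (2 at an unadjusted p under 0.05, limma) and 2 fell, Nid2 (log2 fold change -2.61, adjusted p = 0.00109, limma) and Cxcr4 (7.6 to 8.6 and 1.6 to 1.8 RPKM, adjusted p = 0.000237, limma), with a median of 0.16. Without infant 2, 2 arterial markers were called lower, and 1 tip cell marker was called higher and 3 lower. Dll4, the Notch ligand of tip cells, was at 49.3 to 70.9 and 66.0 to 67.8 RPKM (log2 fold change 0.16, adjusted p = 0.428, limma). Of 7 platelet markers 4 were tested and 0 were called by limma, 0 also at an unadjusted p under 0.05, and their sum was 4.7 to 16.3 RPKM in infant EC and 7.4 to 14.2 RPKM in young adult EC. Without infant 2, 1 of them, the chemokine gene Ppbp, was called higher (log2 change 1.06). Infant 2, the infant library with the highest Pdgfa, Pdgfb and Pdgfd, also had the highest platelet sum and the highest endothelial sum among infants. Its tip cell, leukocyte, epithelial and mesothelial sums were likewise the highest of the infants. Its arterial, fibroblast, mural and erythroid sums were the lowest.

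The other marker lists give the levels of transcripts of other cell types in the libraries. Of the tested markers, 7 of 7 erythroid, 2 of 2 mesothelial, 3 of 10 leukocyte and 4 of 10 epithelial genes were called lower in young adult EC, and 1 epithelial gene was called higher. The summed erythroid level was 9655.9 to 79864.4 RPKM in infant EC and 822.2 to 1350.7 RPKM in young adult EC, with infant 2 again the lowest infant library. It exceeded the endothelial sum in every infant library. Leukocyte markers summed to 331.1 to 528.1 and 142.0 to 564.6 RPKM, epithelial markers to 6490.1 to 11348.0 and 1834.9 to 8370.1 RPKM, and mesothelial markers to 15.3 to 27.6 and 1.1 to 7.6 RPKM, in infant and young adult EC respectively. The epithelial sum was above the endothelial sum in all 3 infant libraries and in young adult 3 (8370.1 against 6360.2 RPKM). It was carried by Sftpc (3733.9 to 4683.1 RPKM in infant EC) and Scgb1a1 (2470.7 to 6286.0 RPKM). Cdh1, another epithelial marker, was at 7.1 to 9.2 RPKM in infant EC. The leukocyte sum was carried by Lyz2, at 275.3 to 467.1 RPKM in infant EC. Such sums do not count cells. The part of these cells in the members' values was not tested.

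The genes whose log2 values followed each member most closely over the 6 libraries were drawn from the 6984 genes that averaged 5 RPKM or more. All share libraries with the member, and no test was made. For Pdgfrb, they were Col1a2, Gper1, Pamr1, Wif1 and Tpm2, each at Pearson r = 0.999. Col1a2 encodes a type I collagen chain and was at 197.0, 36.0 and 143.3 RPKM in infant EC and 0.8, 2.0 and 1.5 RPKM in young adult EC. For Pdgfra, they were Gm5454, Hspa13, Etv1, Pcyox1 and Egfem1 (r = 0.998 to 0.999). Of these Egfem1 had the most similar levels, at 98.5, 3.0 and 77.9 RPKM in infant EC and 0.1 RPKM in each young adult library.

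For Pdgfd the closest genes were Stard7, Tmem9b, Cyb561, Pecam1 and Gpr17 (r = 0.992 to 0.995). Pecam1 encodes CD31, the surface protein used for the sort, and was at 309.8, 512.6 and 330.4 RPKM in infant EC and 573.7, 657.8 and 581.2 RPKM in young adult EC. For Pdgfb they included Map1lc3a, Vamp5, Tmem70 and Dhrs3 (r = 0.975 to 0.981), and for Pdgfa Srp9, Cyp4f16, Rab28, Zfp706 and Trak1 (r = 0.970 to 0.983). No gene named for one member was named for another.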

How the data were processed

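The table held RPKM of RefSeq transcripts in 3 infant and 3 young adult libraries of sorted lung EC. The deposited RPKM values, rounded to 0.1, were made by the authors from 100 bp paired-end reads of SMARTer libraries aligned to mm10 with STAR, and the authors tested with DESeq2. The program and scaling behind RPKM, the strand setting and software versions are not given in the sources used here. As 10 ng of RNA were amplified and read totals are not given, counting error could not be computed.

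Of 17241 transcript rows, the row with the highest mean was kept for each of 12623 genes, and 24 rows whose symbols had turned into dates were restored through RefSeq names. Genes with at least 1 RPKM in at least 1 library (12458) were tested on log2(RPKM + 1), where folds of low genes are understated, with limma 3.58.1 in R 4.3.3 (intensity trend, two-sided, Benjamini-Hochberg adjustment over all genes tested). Genes at an adjusted p under 0.05 and with a log2 change over 0.81 (the fold limit of the study) were called. The fit was tested on simulated data. Ratios were compared by exact two-sided permutation tests. Standard errors are from limma. Members and the 17 gene lists were chosen with earlier results of these data known. Named list genes were up to 4 called genes with the largest change and up to 2 others with the highest mean per list. The closest genes were the 5 with the highest Pearson r. Promoter windows came from RefSeq (GRCm38.p6, the assembly of mm10). The 21 alternatives covered pseudocount, filter, scaling, variance model, threshold, transcript rows, the replicate block and leaving out each library. Figures were drawn with matplotlib 3.10.9. Some genes that met these rules are not reported here.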

Additional observations from a re-analysis of the deposited data

How the results depend on the processing

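Pdgfrb was called under all 21 alternatives (log2 fold change -4.55 to -2.80), and Pdgfa, Pdgfb and Pdgfd under none. Pdgfra was called under 13. It was not called, leaving 1 member called, with a pseudocount of 5 (-2.77, adjusted p = 0.0501, limma), with robust variance estimation (-4.29, adjusted p = 0.055) or when tested against the fold limit (-4.29, adjusted p = 0.215). Leaving out 1 library gave -5.76 to -3.46 for Pdgfra, 1 to 2 members called and 842 to 1874 genes called, against 1424 with all libraries. The count was 578 with a pseudocount of 5 and 176 when tested against the fold limit. The cause was not tested. Quantile normalization raised the median log2 change by 0.12 to 0.04 over all genes and gave 532 genes higher and 611 lower, against 415 and 1009. With a pseudocount of 5 the split was 240 and 338. Both ratios kept their direction under their 10 alternatives, and no p could fall below 0.1.

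Deviations from the group mean correlated between same-numbered libraries at r = 0.03, -0.11 and -0.02. Differently numbered libraries of the 2 ages gave -0.12 to 0.11. These values cannot tell whether same-numbered libraries shared more than a number. With the replicate block 1371 genes and 2 members were called, with an adjusted p of 0.0361 for Pdgfra and 0.00983 for Pdgfrb in limma.

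Among the named genes, direction turned only for some that were not called. Nrp1 was at 0.049 with libraries scaled to the same sum, 0.028 with median ratios and 0.052 with array weights, Ptpn2 at -0.068 without globin genes and Sftpc at 0.091 with quantile normalization. Leaving out 1 library gave -0.15 to 0.14 for Nrp1, -0.23 to 0.078 for Dusp6, -0.026 to 0.078 for Ptpn2, -0.15 to 0.43 for Gja4, -0.21 to 0.68 for Pf4 and -0.83 to 0.14 for Lyz2. Unknown depth limits what can be said of genes near 0.1 RPKM, the rounding step.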
